A study of Mus musculus with 4 samples.

Results

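The cells described here are 542 barcodes, of 39009 in 4 libraries of sorted splenic B cells, chosen by minimum counts of the plasma cell transcripts Jchain, Xbp1 and Mzb1. Most of them did not show the wider profile of antibody-secreting plasma cells, as described below. A barcode was taken as a member when it was absent from the deposited table of germinal center (GC) B cells, drew under 8% of its unique molecular identifiers (UMIs, the counted transcripts) from mitochondrial genes, and held at least 10 UMIs of Jchain, 3 of Xbp1 and 3 of Mzb1. It also had to hold no UMI of Cd3e, Cd3d or Cd3g, the CD3 genes of T cells. The libraries are named WT, C, K and CK by genotype, and where 4 values follow each other they stand in that order. They held 143, 115, 160 and 124 members. Because these genes chose the cells, their levels, and every comparison of members with other cells, are given as descriptions without a test.

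Each library came from 1 mouse, so genotypes could not be tested against each other, and the 95% intervals given below cover counting error only. The WT mouse carried Cγ1-cre alone, the C mouse Cγ1-cre with Crebbp fl/+, the K mouse Cγ1-cre with Kmt2d fl/+, and the CK mouse Cγ1-cre with both floxed alleles. The immunized mice were 8-week-old females on a C57BL/6J background, given sheep red blood cells to induce GCs and killed on day 10, and spleen cells were sorted as B220+IgD-. B220 is lost by many plasma cells, so the sort holds only those that still stained. Cγ1-cre acts where the Ighg1 locus is transcribed, and which members carried a deletion is not known. Crebbp gave 20, 8, 9 and 6 UMIs in the immunoglobulin-rich members (defined next), and Kmt2d gave 3, 0, 1 and 4, counts that do not check an exon deletion.

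Plasma cells are the antibody factories of the immune system. When a B cell differentiates, the repressor Blimp-1 (Prdm1) and the activator IRF4 shut down the B cell and GC programs, and XBP1 expands the endoplasmic reticulum (ER) so that immunoglobulin chains can be folded, glycosylated and exported. The J chain (Jchain) links IgM and IgA into polymers, MZB1 (Mzb1) is an ER co-chaperone of B lineage cells, and syndecan-1 (Sdc1, CD138) is the surface marker by which plasma cells are usually sorted. In the spleen, a response to red blood cells yields short-lived plasmablasts that still divide and cells that have left the cell cycle.

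The label of plasma cells held for a minority of the members. Immunoglobulin genes, which the gate did not read, were used to split the members. In 162 of the 542 members (29.9%, 95% Clopper-Pearson interval 26.1 to 33.9) at least 20% of UMIs came from immunoglobulin genes, and these are called immunoglobulin-rich. The other 380 are called immunoglobulin-low. The cut was set with the distribution in view. Near it, 8 members lay between 15 and 20% and 14 between 20 and 25%. Farther below it, 12 lay between 10 and 15% and 7 between 5 and 10%, the sparsest of these bins.

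The libraries held 36, 29, 48 and 49 immunoglobulin-rich members. Their median immunoglobulin share was 47.5, 54.9, 59.2 and 47.4%, with single cells between 20.2 and 81.0%. The immunoglobulin-low members had medians of 1.65, 2.01, 1.68 and 1.75%, close to the 1.84 to 1.98% of deposited GC B cells, whose highest cell reached 16.0%. Thus every immunoglobulin-rich member lay above every one of the 9804 deposited GC B cells, as the 20% line and the highest GC B cell require, and most immunoglobulin-low members lay within their range.

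**Figure D1:**
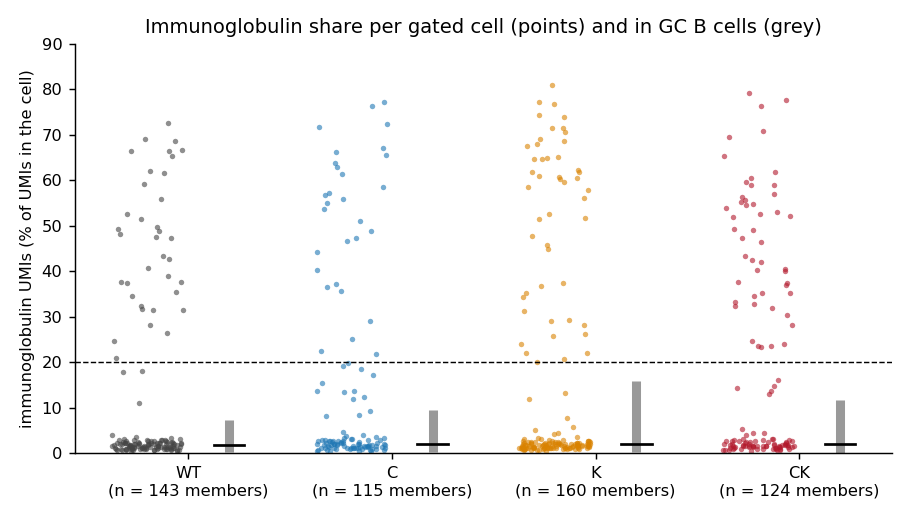
Immunoglobulin UMIs as a percentage of all UMIs in each member (points, colored by library) with the range (grey bar) and median (black tick) of deposited GC B cells of the same library on the right. The dashed line marks 20%: 162 members lie above it, and most of the other 380 lie near the GC B cell median.

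Sdc1 and Prdm1, fixed as plasma cell markers but not read by the gate, followed the same split. At least 1 UMI of either was found in 27 of 36, 22 of 29, 40 of 48 and 35 of 49 immunoglobulin-rich members. Among immunoglobulin-low members the counts were 4 of 107, 15 of 86, 2 of 112 and 6 of 75. By immunoglobulin share, the cells with either transcript numbered 11 of 353 below 5%, 16 of 27 from 5 to 20%, 64 of 80 from 20 to 50%, and 60 of 82 at 50% and above. The 27 cells between 5 and 20% were thus mixed. Either transcript was in 1 of the 7 cells from 5 to 10%. The counts were 10 of 12 from 10 to 15% and 5 of 8 from 15 to 20%. Cells below 5% rarely held a plasma cell marker outside the gate.

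The members just inside the Jchain threshold were of the immunoglobulin-low kind. The 17 members with exactly 10 Jchain UMIs included 0 immunoglobulin-rich cells, as did the 10 barcodes that missed the gate with 9 UMIs. At 3 Xbp1 UMIs, 5 of 161 members were immunoglobulin-rich, and 5 of the 280 barcodes just outside with 2 UMIs. No barcode stood at the Mzb1 threshold. Median Jchain counts were 475, 477, 515 and 313 UMIs in the immunoglobulin-rich members of WT, C, K and CK against 19, 26.5, 22 and 20 in the immunoglobulin-low members.

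Depth moved with this split. Immunoglobulin-low members held a median of 3718, 3235.5, 3309 and 3226 detected genes, against 1886, 1669, 1733 and 1574 in deposited GC B cells and 2227, 1729, 1694 and 1535 in immunoglobulin-rich members. Outside immunoglobulin genes they held medians of 12235 to 15183 UMIs, immunoglobulin-rich members 4500 to 8018.5. The deposited table stopped near 2500 detected genes, its highest cell holding 2501 in WT and 2499 in C, K and CK, whereas 106 of 107, 75 of 86, 112 of 112 and 73 of 75 immunoglobulin-low members had 2500 or more. Comparisons of these members with deposited cells therefore set cells mostly above that limit beside cells below it. A fixed count such as 10 Jchain UMIs is more easily reached in a deeper cell, and the part of depth in the gate was not tested. The doublet caller Scrublet marked 4, 4, 5 and 2 members in WT, C, K and CK, all of them immunoglobulin-low, among 3.50 to 5.34% of all barcodes below the mitochondrial limit.

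The libraries held 8071 to 12852 barcodes and 33270825 to 39803865 UMIs, with a median of 2202.5 to 3201 UMIs per barcode. Across libraries, 143 barcode sequences occurred more than once. Of these, 5 belonged to members, and none was a member in more than 1 library. Levels below are UMIs per 1000000 non-immunoglobulin UMIs (CPM) in the summed cells of a library, so that the antibody transcripts themselves do not dilute the rest. A gene is called higher or lower when its ratio was at least 2-fold in each of the 4 libraries.

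Immunoglobulin-rich members carried the surface and nuclear markers of plasma cells. Sdc1 (ENSMUSG00000020592, chr12:8771323-8793715 of GRCm38.p6) stood at 156, 211, 152 and 182 CPM, against at most 0.566 in deposited GC B cells. Prdm1 stood at 115, 75.6, 80.5 and 72.8 CPM against 0.940 to 2.36, and Irf4 at 98.0, 91.8, 131 and 89.0 CPM against 4.98 to 8.75. In each of the 4 libraries all 3 genes were far above the GC B cells of the same mouse. The lowest log2 ratio of Irf4 was 3.49 (2.78 to 4.17) in WT.

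Tnfrsf17 encodes BCMA, the receptor through which plasma cells receive the survival signal APRIL. It gave 257, 162, 292 and 392 CPM in immunoglobulin-rich members, and in GC B cells 0 UMIs in WT and C, so that it was at least 509-fold higher in WT and at least 460-fold in C, taking 3 UMIs over the summed GC B cells as the floor. Cd28, a costimulatory receptor of T cells that long-lived plasma cells also use, stood at 145, 216, 209 and 299 CPM against 0.673 to 2.26 in GC B cells. T cells of the same libraries held 225 to 260 CPM of Cd28 but no Tnfrsf17 UMI, and the members were chosen for lacking CD3 transcripts.

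Sdc1 was found cell by cell in 101 of 162 immunoglobulin-rich members (55.6 to 70.8% by library), Prdm1 in 67 (34.7 to 55.6%), Tnfrsf17 in 68 and Cd28 in 91. T cells served as the reference, where 7 of 6052 held Sdc1 and 38 Prdm1. Free transcripts were not told apart from those of the T cells themselves. With each cell thinned to 2000 UMIs, Sdc1 remained in 31.0% of 155 immunoglobulin-rich members against 0.0719% of T cells, and Prdm1 in 18.7% against 0.432%. Among immunoglobulin-low members the thinned shares were 1.06% for Sdc1 and 3.18% for Prdm1.

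Over all genes, 515 of 9068 tested (5.68%) were called higher in immunoglobulin-rich members than in GC B cells and 629 (6.94%) lower, with a median log2 ratio of -0.11. The genes with the largest ratios by the fixed ranking were Fkbp11, Ckap4, Selenom, Slpi, Prg2, Tmem176b, Pdia4, Hsp90b1, Fam46c and Creld2. Several are ER proteins, among them the prolyl isomerase Fkbp11, the sheet-shaping protein Ckap4, and the disulfide isomerase Pdia4. Slpi, a secreted protease inhibitor, reached 15688, 34805, 36833 and 24778 CPM against 50.3 to 118 in GC B cells. Scaled by all UMIs, immunoglobulin included, the median of all genes moved to -1.07 and the calls to 241 higher and 3063 lower.

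Most tested genes of the secretory pathway were higher in the immunoglobulin-rich members. All 24 tested ER chaperones and folding enzymes were called higher, with a median log2 ratio of 3.71. So were 11 of 14 genes of ER-associated degradation (2.50), 19 of 22 of the translocon and signal peptidase (2.47), 13 of 16 of N-glycosylation (2.01) and 15 of 21 tested genes of ER to Golgi traffic (1.87). With scaling by all UMIs these medians stayed above 0, from 0.93 for ER to Golgi traffic to 2.74 for the chaperones, but fewer genes were called higher. The calls were then 22 of 24 chaperones, 8 of 14 degradation genes, 12 of 22 translocon genes, 7 of 16 N-glycosylation genes with 1 lower, and 7 of 21 genes of ER to Golgi traffic.

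Hsp90b1, the ER-resident HSP90 chaperone known as GRP94, had 17151, 17967, 11658 and 18259 CPM, 57.7- to 69.3-fold the GC B cell level. Hspa5, the chaperone BiP that holds free heavy chains, had 5698, 5544, 3479 and 5148 CPM against 320 to 506. Edem1, which marks misfolded glycoproteins for disposal, had log2 ratios of 4.92 to 4.97, and Ssr4, a translocon-associated subunit, 4.17 to 4.61. Lman1, the cargo receptor that carries glycoproteins out of the ER, had 4.46 to 4.74. The ratios of these genes differed little between the 4 mice.

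The transcriptional regulators of the unfolded protein response were raised less than the secretory genes. Of 8 tested, 4 were called higher (Atf6, Atf6b, Creb3l2 and Ppp1r15a), with a median log2 ratio of 1.04. With scaling by all UMIs 2 were called and the median was 0.06. The stress-induced factor Ddit3 gave log2 ratios from -0.81 to 0.49 and the kinase gene Eif2ak3 from -0.04 to 0.52. Of 11 tested genes of amino acid supply, 1 was called higher, Slc3a2, the shared heavy chain of large amino acid transporters. Slc3a2 stood at 504, 367, 224 and 162 CPM against 45.7 to 62.3 in GC B cells.

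Of the secretory genes called higher, 8 had promoters that held the ER stress response element, a motif read by ATF6 together with NF-Y, and these are shown. The motif searched was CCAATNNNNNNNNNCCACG on both strands, within the 250 bases before and 50 after the listed start in RefSeq (GRCm38.p6). It occurred in 8 of 68 secretory genes called higher that had a promoter in that table (11.8%). Among all secretory genes tested, called or not, it occurred in 9 of 83 (10.8%), a share close to that of the called genes. It occurred in 7 of 19 ER chaperone genes (36.8%), in 13 of 7185 genes tested (0.181%) and in 35 of 27025 promoters in all (0.130%). The core CCACG, contained in it, occurred in 47 of the 68 (69.1%) and in 56 of the 83 (67.5%). The core was in 49.6% of all genes tested and in 32.7% of all promoters. The 250 bases upstream of Hsp90b1 hold the motif 2 times, once on each strand, and are printed 5′ to 3′ on the strand of the gene with both matches in capitals.
Hsp90b1 (chr10:86705445-86705694, minus strand): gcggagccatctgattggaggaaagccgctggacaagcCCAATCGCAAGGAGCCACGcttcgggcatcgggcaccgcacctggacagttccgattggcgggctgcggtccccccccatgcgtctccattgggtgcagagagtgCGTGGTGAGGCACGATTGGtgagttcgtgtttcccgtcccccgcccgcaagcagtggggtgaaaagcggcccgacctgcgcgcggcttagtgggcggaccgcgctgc
In the other 7 genes 59 bases around the motif are given in the same way, and capitals mark the match, printed as its reverse complement where it lies on the opposite strand.
Hspa5 (chr2:34772005-34772063, plus strand): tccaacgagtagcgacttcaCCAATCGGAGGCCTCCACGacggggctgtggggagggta
Calr (chr8:84847055-84847113, minus strand): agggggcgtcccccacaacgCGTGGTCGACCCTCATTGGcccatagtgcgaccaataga
Canx (chr11:50325780-50325838, minus strand): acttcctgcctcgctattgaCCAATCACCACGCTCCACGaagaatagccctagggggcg
Pdia6 (chr12:17266471-17266529, plus strand): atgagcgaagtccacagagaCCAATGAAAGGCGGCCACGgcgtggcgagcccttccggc
Dnajc3 (chr14:118937807-118937865, plus strand): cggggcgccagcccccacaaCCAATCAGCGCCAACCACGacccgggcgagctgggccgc
Creld2 (chr15:88819500-88819558, plus strand): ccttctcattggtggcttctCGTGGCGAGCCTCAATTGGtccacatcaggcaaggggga
Derl3 (chr10:75893222-75893280, plus strand): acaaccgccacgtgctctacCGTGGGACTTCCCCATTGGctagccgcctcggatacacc
These matches are descriptions of sequence. No binding was measured here.

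The B cell and GC programs were low in the immunoglobulin-rich members. All 12 genes of the GC program were called lower (median log2 ratio -2.84), as were 15 of 20 B cell identity genes (-2.33) and 8 of 10 MHC class II genes (-1.90). Rgs13, a GC regulator of chemokine signaling, fell to 27.0, 32.4, 14.9 and 24.3 CPM from 464 to 582 in GC B cells. Pax5, which holds B cell identity, gave 7, 0, 1 and 3 UMIs in the 4 libraries, and Bcl6, the master repressor of the GC, 2, 0, 0 and 1.

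Some surface B cell genes were still abundant. Ms4a1 (CD20) stood at 321, 238, 194 and 235 CPM against 1494 to 1779 in GC B cells. Cd79a, the signaling partner of the B cell receptor, did not pass the 2-fold rule, with log2 ratios from -0.80 to -0.61. Cd74, the MHC class II invariant chain, remained abundant at 8986 to 11264 CPM, with log2 ratios from -1.52 to -1.27. The other genes that led the lower ranking were Cd83, Blvrb, Lrmp, Smagp, Cotl1, Bin1, Il4i1 and Dusp2.

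Adhesion and survival genes moved in part. Of 15 tested homing and adhesion genes, 5 were called higher (Itga4, Itgb7, Cd44, Cd9 and Cd93) and 1 lower (Cxcr5, the receptor that draws B cells into follicles), and Ccr10, too rare in GC B cells to be tested, gave 37.8 to 89.0 CPM. Itga4, an integrin chain of VLA-4, stood at 402, 470, 224 and 562 CPM against at most 42.2 in GC B cells. Cxcr4, which draws plasma cells to the bone marrow, gave 5, 1, 1 and 2 UMIs and did not pass the rule. Of 11 tested survival genes, 5 were called higher (Tnfrsf17, Bcl2l11, Il6ra, Cd28 and Slamf7) and 1 lower (Tnfrsf13c, the BAFF receptor). With scaling by all UMIs the medians of these lists fell from 1.08 to 0.19 and from 1.07 to 0.07.

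Other cell types contributed few transcripts. The T cell list, from which the gate removed CD3 genes, summed to 35.8 to 54.1 CPM in immunoglobulin-rich members, below the 111 to 139 in GC B cells and the 10512 to 11490 in T cells. Myeloid markers summed to 16.9, 48.6 and 41.7 CPM in WT, C and K and to 493 in CK. In CK, 115 of 122 myeloid UMIs, among them all 106 of S100a8 and S100a9, lay in a single cell, and 29.2 CPM remained without it. NK cell markers summed to 13.5 to 28.3 CPM and erythroid markers to 5.96 to 33.8. Of 4 tested genes of plasmacytoid dendritic cells, which share ER expansion with plasma cells, Bst2 was called higher and Irf8 lower, and Siglech, Cox6a2 and Klk1 gave no UMI. Of 5 tested genes of the response to handling, 1 was called higher, Jun, with 3 to 23 UMIs.

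**Figure D2:**
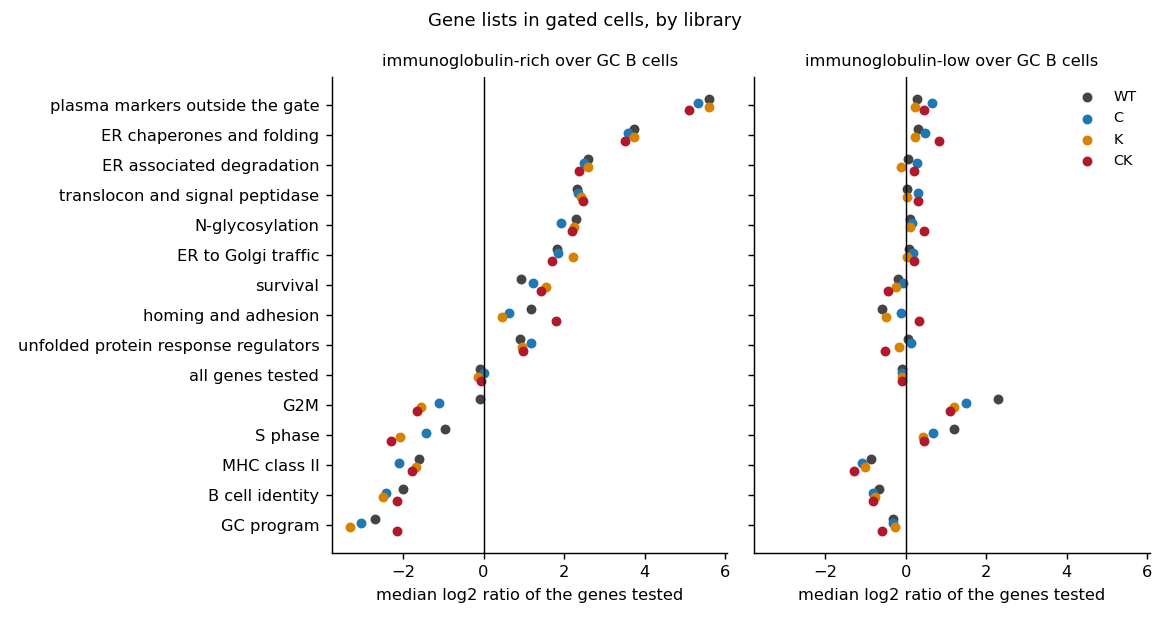
Median log2 ratio of the tested genes of each list in immunoglobulin-rich members (left) and immunoglobulin-low members (right) over deposited GC B cells, with 1 point per library. Secretory lists lie right of 0 and B cell, GC and MHC class II lists left of 0 in the immunoglobulin-rich members, while in the immunoglobulin-low members the G2M list lies farthest to the right.

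Summed over all 380 cells, the immunoglobulin-low members carried the transcripts of dividing GC B cells. Against deposited GC B cells, 86 of 9255 genes tested (0.929%) were called higher and 106 (1.15%) lower, and 11 of 18 G2M genes were among the higher, with a median log2 ratio of 1.36. The ranking was led by mitotic genes such as Plk1, Ccnb1, Ube2c, Ccna2, Hmmr, Incenp and Cdk1, with the histone gene Hist1h1b, the chaperone Hsp90aa1 and the thymidylate synthase gene Tyms. Plk1, the polo-like kinase of mitotic entry, stood at 178, 206, 187 and 250 CPM in WT, C, K and CK against 24.6 to 72.8 in GC B cells. None of the 12 GC program genes but Cd83 was called lower.

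Set beside the deposited centroblasts, the dividing GC B cells of the dark zone, few genes remained different. Of 7454 tested, 51 (0.684%) were called higher and 25 (0.335%) lower. No G2M, GC program or B cell identity gene was among them. Of the secretory and plasma cell genes outside the gate, Derl3, Hsp90b1, Sdf2l1 and Creld2 were called higher. Without the 27 cells with 5 to 20% immunoglobulin UMIs, none of these genes was called, though their levels stayed above those of centroblasts. In CK, 6 such cells gave 4251 ER chaperone UMIs and the other 69 cells 4095. In C, chaperones summed to 29947 CPM in 13 such cells and to 3809 CPM in the other 73.

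With only the 353 members below 5% immunoglobulin UMIs, an alternative added after seeing the data, 92 of 9247 genes (0.995%) were called higher and 121 (1.31%) lower than in GC B cells. G2M genes supplied 13 of the higher calls, and no ER chaperone and no plasma marker outside the gate was among them. Against centroblasts 40 of 7416 (0.539%) were called higher and 29 (0.391%) lower, again without a chaperone, plasma marker or G2M gene. Hsp90b1 stood at 407, 519, 205 and 449 CPM in these cells against 255, 291, 176 and 302 in centroblasts. Sdf2l1 stood at 127, 123, 109 and 165 CPM against 52.9, 80.0, 64.4 and 82.2. For Derl3 the values were 24.4, 21.4, 22.6 and 21.5 CPM against 6.35, 11.3, 16.2 and 13.2. Creld2 gave 60.4, 48.0, 49.7 and 50.7 CPM against 30.7, 42.7, 35.7 and 37.7. The 353 cells are called by the rule and their leading mitotic genes only. Sdc1 or Prdm1 was found in 11 of them, and the 27 cells with 5 to 20% are left unnamed.

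A direct comparison of the groups within the gate gave 394 of 5529 genes (7.13%) higher and 737 (13.3%) lower in immunoglobulin-rich than in immunoglobulin-low members. Higher were 12 of 13 plasma markers outside the gate and 22 of 23 tested ER chaperones. Lower were all 18 G2M and all 16 S phase genes, 10 of 12 GC program genes and 8 of 19 B cell identity genes, but only 1 of 10 MHC class II genes. MHC class II genes summed to 12050 to 14918 CPM in the immunoglobulin-rich, 12326 to 19086 in the immunoglobulin-low and 31703 to 39357 in GC B cells, so both groups lay below the deposited cells.

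The members as a whole gave a mixed profile. Over all 542 members, 157 of 9347 genes (1.68%) were called higher and 119 (1.27%) lower than in GC B cells. The higher ranking was led by Fkbp11, Slpi, Hsp90b1, Pdia4, Creld2, Trp53inp1, Edem1, Sub1, Lman1 and Edem2, which the immunoglobulin-rich cells carried. The lower ranking was led by Il4i1, Cd83, H2-Oa, Gm26740, Fcmr, Bank1, Gm8369, Napsa, Cd74 and Cd72. Il4i1 and Cd83, genes of light zone GC B cells, had log2 ratios of -3.37 to -2.65 and of -3.00 to -2.33.

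Along the immunoglobulin share the programs changed in opposite directions. ER chaperones summed to 3479 CPM in members below 5%, 34917 from 5 to 20%, 48106 from 20 to 50% and 51769 at 50% and above. G2M genes summed to 6267, 3452, 1533 and 461 CPM in the same bands, S phase genes to 3776, 2279, 954 and 229, and the GC program to 2843, 828, 623 and 505. In sum, the 27 cells between 5 and 20% thus had high chaperone levels and G2M levels between those of both neighbors. Whether single cells held both was not tested. S phase genes did not keep this order in every library, with 343 CPM from 5 to 20% and 923 from 20 to 50% in WT.

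Proliferation was compared at equal depth, since the immunoglobulin-low cells were deeper. After thinning each cell to 2000 non-immunoglobulin UMIs, at least 3 UMIs of the 18 G2M genes were found in 5 of 33 immunoglobulin-rich members of WT (15.2%, interval 5.11 to 31.9), 2 of 28 of C (7.14%, 0.877 to 23.5), 4 of 47 of K (8.51%, 2.37 to 20.4) and 9 of 47 of CK (19.1%, 9.15 to 33.3). The intervals of the 4 libraries overlapped. In immunoglobulin-low members the shares were 80.4, 80.7, 81.3 and 94.7%, in deposited centroblasts 93.7 to 96.2%, in centrocytes 1.54 to 3.20% and in T cells 1.24 to 4.96%.

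Most immunoglobulin-rich members had no G2M transcript at that depth (57.6, 71.4, 74.5 and 61.7%). In the summed counts without thinning, G2M genes stood at 1534, 1010, 903 and 983 CPM against 1466, 2271, 2183 and 3094 in GC B cells of the same library. The log2 ratio was 0.07 (-0.07 to 0.20) in WT and -1.17, -1.27 and -1.65 in C, K and CK. The difference lay in both terms, because the GC B cell level was lowest and the immunoglobulin-rich level highest in WT. S phase genes were lower in every library, with log2 ratios of -1.002, -1.77, -1.90 and -2.30. Mki67, the proliferation antigen Ki-67, was found in 50 of 162 immunoglobulin-rich members and 257 of 6052 T cells, and after thinning in 14.2% against 3.17% of T cells and 9.15% of centrocytes.

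**Figure D3:**
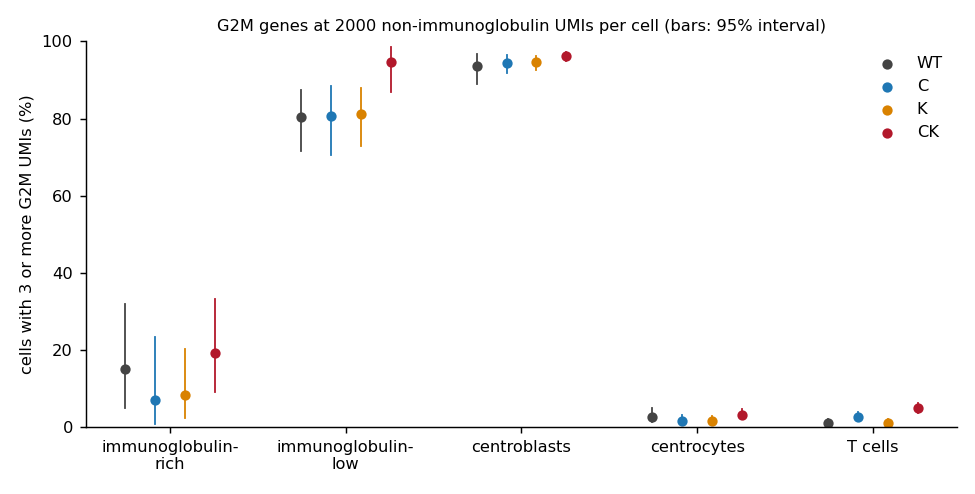
Share of cells with at least 3 G2M UMIs after thinning to 2000 non-immunoglobulin UMIs, by library (color), with 95% Clopper-Pearson bars. Immunoglobulin-rich members lie at 7.14 to 19.1%, above centrocytes and T cells and far below immunoglobulin-low members and centroblasts. Their bars overlap those of centrocytes and T cells in C and those of centrocytes in K.

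Heavy chain isotype was read from the constant region gene that led each cell, with at least 10 UMIs and at least 50% of heavy chain constant UMIs. All 162 immunoglobulin-rich members received a call, and the leading gene held a median of 99.3 to 99.9% of heavy chain UMIs. Switched isotypes prevailed: 86 cells (53.1%) were led by an Ighg gene, 39 (24.1%) by Igha and 37 (22.8%) by Ighm. No member was led by Ighd or Ighe. Among the Ighg cells, Ighg1 led 33, Ighg3 25, Ighg2b 23 and Ighg2c 5, and reads shared between these similar genes make the subclass less certain than the class.

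By library, Ighm led 14, 3, 8 and 12 cells, Ighg 15, 19, 29 and 23, and Igha 7, 7, 11 and 14. Ighg was the most frequent class in each library. Over WT, the share led by Ighm was 0.266-fold in C (0.049 to 0.953) and that led by Ighg3 4.14-fold (1.07 to 23.4), with 3 Ighm cells in C and 3 Ighg3 cells in WT. The intervals of the other tested ratios included 1, and with 1 mouse each the differences cannot be assigned to genotype.

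The immunoglobulin-low members and GC B cells were mostly led by Ighm. It led 242 of 338 immunoglobulin-low members with a call, against 85 for Ighg and 11 for Igha. Among deposited GC B cells Ighm led 4745 of the 5174 with a call (91.7%), Ighg 425 and Igha 4, and most of the other GC B cells held too few heavy chain UMIs. Without the minimum of 10 UMIs, Ighm led 82.9, 66.7, 74.8 and 73.7% of GC B cells and Ighg 16.0, 32.3, 24.6 and 25.8%, so Ighg led a larger share of all GC B cells than of those with a call. Light chains of the immunoglobulin-rich members were mostly kappa, with lambda leading 1 of 36, 1 of 29, 2 of 48 and 1 of 49.

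**Figure D4:**
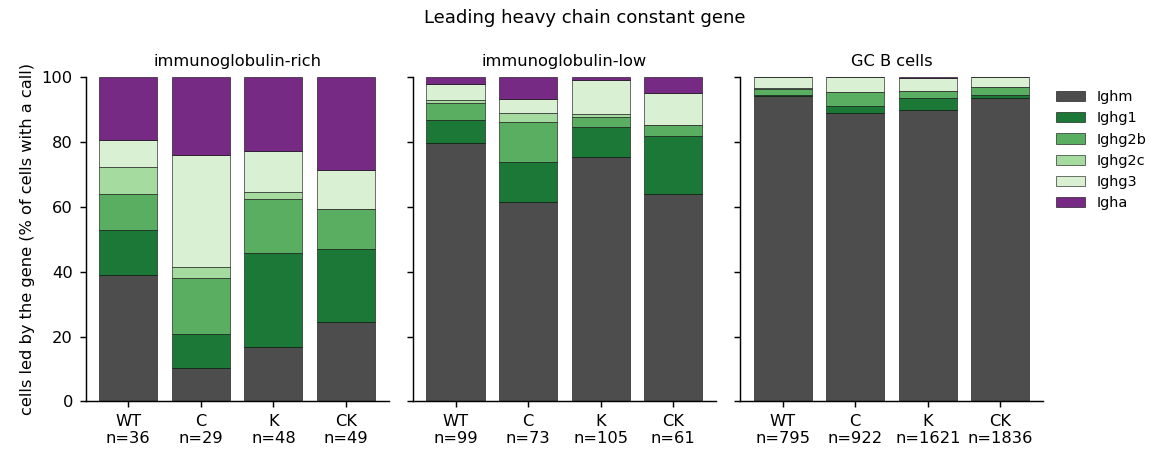
Share of cells led by each heavy chain constant gene, among cells with a call, by library (n below each bar). Ighg genes (green) and Igha (purple) make up most immunoglobulin-rich members, while Ighm (dark grey) leads most immunoglobulin-low members and most of the 5174 of 9804 GC B cells that reached 10 heavy chain UMIs.

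Within the immunoglobulin-rich members, several homing and survival genes differed between the heavy chain classes, and those named were chosen after their values were seen. Ccr10, a chemokine receptor of IgA plasma cells, gave 209 CPM in the 39 Igha cells against 15.1 in Ighg and 3.95 in Ighm cells. Its level in the Igha cells of each library was 216, 97.9, 225 and 281 CPM. Itgb7, the integrin chain that pairs with Itga4 for entry to the gut, gave 484 CPM against 35.2 and 7.90. Klf2, a factor of trafficking and quiescence, gave 991 against 67.1 and 27.7. Tnfrsf17 gave 968 against 53.7 and 241. Ccr9, a gut homing receptor, was found in 3 of 39 Igha, 1 of 86 Ighg and 1 of 37 Ighm cells. For these 4 genes the Igha level lay above both other classes in each of the 4 libraries, although Ighm cells numbered only 3 in C.

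Other genes differed between the classes in another order. Cd93, needed for plasma cell maintenance, gave 101 CPM in Ighg cells (76.8 to 130) against 15.8 (4.31 to 40.5) in Ighm and 32.6 (13.1 to 67.1) in Igha cells. Cd28 gave 245 and 247 CPM in Ighg and Igha cells against 111 in Ighm cells. Ly6c2, a surface antigen of some plasma cells, was highest in Ighm cells at 514 CPM, and in C this came from 28 UMIs in 3 cells. MHC class II genes summed to 18171 CPM in Ighm, 13065 in Ighg and 6852 in Igha cells, the Igha value being the lowest in each library, while in C the 3 Ighm cells lay below the Ighg cells.

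**Figure D5:**
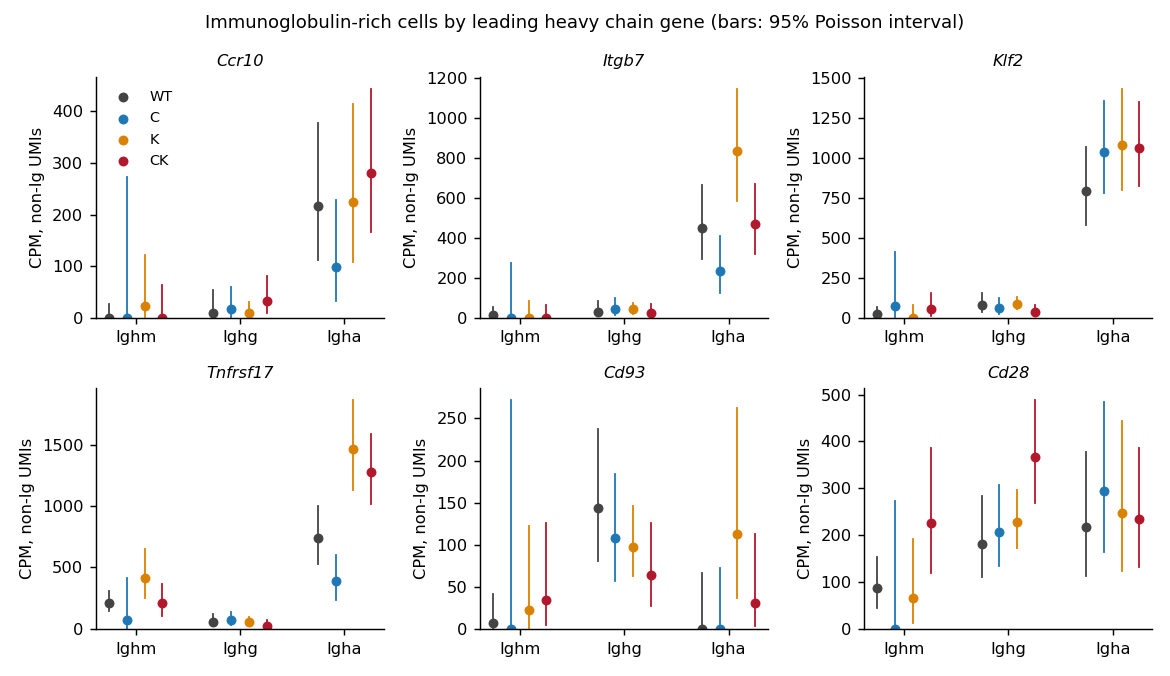
Level of 6 genes (CPM of non-immunoglobulin UMIs) in immunoglobulin-rich members grouped by leading heavy chain gene, with 1 point per library and bars for the 95% Poisson interval. Ccr10, Itgb7, Klf2 and Tnfrsf17 are highest in Igha cells in each library, and Cd93 has its highest pooled level in Ighg cells.

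Heavy chain variable genes could be read in few cells, light chain ones in 126 of the 162 immunoglobulin-rich members. A heavy chain variable gene was assigned in 27 of the 162 immunoglobulin-rich members (8, 7, 2 and 10 by library). In WT the 8 cells used 8 genes. In C, 4 of 7 cells used Ighv1-75, and in CK, 4 of 10 used Ighv1-9. A pair of heavy and light variable genes occurred in more than 1 cell 1 time in C (2 cells) and 1 time in CK (3 cells). Many light chain calls were led by the lambda gene Iglv1, although few cells were led by a lambda constant gene. The light chain part of a pair is therefore uncertain.

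As a share of barcodes below the mitochondrial limit, members made up 2.47, 1.37, 2.33 and 1.16%. The share of immunoglobulin-rich members was 0.621% (0.435 to 0.858) for WT, 0.346% (0.232 to 0.496) for C, 0.698% (0.515 to 0.924) for K and 0.460% (0.341 to 0.608) for CK. Over WT, this share was 0.557-fold (0.329 to 0.934) for C, 1.12-fold (0.714 to 1.78) for K and 0.741-fold (0.472 to 1.17) for CK. For the immunoglobulin-low members the ratios were 0.556, 0.882 and 0.382 (0.280 to 0.518 in CK).

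The reference population mattered for these shares. Per deposited GC B cell, the immunoglobulin-rich ratio over WT was 0.484 (0.286 to 0.812) for C, 0.633 (0.403 to 1.004) for K and 0.422 (0.269 to 0.669) for CK, where the deposited GC B cells numbered 1227, 2041, 2583 and 3953. The direction in K differed between the denominators, and with a mitochondrial limit of 5% the log2 ratio of K over WT per barcode was -0.52, against 0.17 as given. With 1 mouse per genotype, differences between mice and between genotypes cannot be told apart.

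Between genotypes, the immunoglobulin-rich profiles were counted for CK over WT. Of 686 genes compared, 7 (1.02%) were at least 2-fold higher and 5 (0.729%) at least 2-fold lower in CK than in WT. Of the genes chosen by the fixed ranking and shared in direction by C and K, the higher included S100a10 (log2 1.36), Ndufb4 (1.21), Crip1 (1.10) and Cd28 (1.04), and the lower were H2afx (-1.76), Slc3a2 (-1.64), Top2a (-1.58), Laptm5 (-1.09) and Ddx5 (-0.97). H2afx and Top2a are expressed in dividing cells, and the summed G2M genes stood at log2 -0.60, -0.76 and -0.64 in C, K and CK relative to WT. Cells with at least 3 G2M UMIs at equal depth stood in another order. They made up 15.2, 7.14, 8.51 and 19.1% in WT, C, K and CK, with overlapping intervals. Whether division differed between genotypes was not tested. S100a10 had 55 UMIs in WT and 118 in CK, and its CK to WT ratio was -0.91 in GC B cells.

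Over all members, 3 of 857 genes (0.35%) were at least 2-fold higher and 2 (0.233%) lower in CK than in WT. Pycard (log2 1.25), Slpi (1.14), Fkbp11 (1.04), Gm10076 and Manf led the higher and Gm47283 (-2.43), Cotl1, H2-DMa, H2-Aa and H2-Eb1 the lower. Slpi stood 1.23 higher in GC B cells of CK than of WT as well. The immunoglobulin-rich share of the members was 25.2% in WT and C, 30% in K and 39.5% in CK. Over WT, Slpi stood at log2 1.12 in C and 1.37 in K, and Pycard at 0.42 and 0.48. The part of the immunoglobulin-rich share in these values was not tested.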

How the data were processed

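Barcodes, genes and UMI counts came from 4 filtered 10x Genomics 3' matrices that the authors deposited, 1 per genotype, made with Cell Ranger 3.0 on mm10 per the processing notes (3.0.2 in the matrix headers). The deposited cell table, made with Seurat 4.0, gave the GC B cells and their types. The counts are raw and were used as deposited. Members and gene lists were chosen with earlier results of these data known, and the split at 20% immunoglobulin UMIs, planned as an alternative, became the main account after its distribution was seen.

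Members were the barcodes outside that table below 8% mitochondrial UMIs with at least 10 Jchain, 3 Xbp1 and 3 Mzb1 UMIs and no CD3 UMI. T cells held at least 2 CD3 UMIs. UMIs were summed per library and population and scaled to non-immunoglobulin UMIs (392 immunoglobulin genes left out). Genes with at least 20 UMIs over both populations in every library were compared, the lower side was raised to 3 UMIs, and a 2-fold ratio in all 4 libraries was called. No test was made, as each genotype had 1 mouse. Intervals are exact Clopper-Pearson, Poisson or conditional binomial ones and cover counting error only. Named genes were those of the lists described, plus the 10 largest and 10 smallest ratios by the value nearest 0, among genes with 50 UMIs and 100 CPM in the higher population, ranked in the same way for both groups of members. Between genotypes, the 5 highest and 5 lowest CK over WT ratios were named where C and K moved likewise, at 200 CPM and 50 UMIs. Some genes these rules name are not reported here. Depth was equalized by thinning cells to 2000 UMIs (seed 1). Doublets were called with Scrublet in scanpy 1.11.5 and kept. Scripts (Python 3.11.15, numpy 2.4.6, scipy 1.17.1, pandas 2.3.3, matplotlib 3.10.9) were tested on simulated data. Promoters were RefSeq's (GRCm38.p6).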

Additional observations from a re-analysis of the deposited data

Results flagged for a closer look

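A signal in barcodes outside the gate was above the level in GC B cells. Below the mitochondrial limit, 47 barcodes that were no members had at least 20% immunoglobulin UMIs (6, 10, 16 and 15 for WT, C, K and CK). Of these, 26 held a CD3 UMI and 21 missed the Jchain, Xbp1 or Mzb1 thresholds. A further 18 lay over the mitochondrial limit, and no cell of the deposited table had such a share.

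Among the deposited GC B cells, 70 passed the UMI and CD3 conditions of the gate (9, 18, 28 and 15 in the same order). They were typed as 44 Transitioning_CB_CC, 16 Centroblast, 5 Early_Centroblast, 4 Centrocyte and 1 Recycling, and 2 of them held Prdm1 or Sdc1. No group had the 4 samples that a check for outlying samples needs.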

How the results depend on the processing

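The 26 main quantities were recomputed under the alternatives, 300 values in all, of which 233 stayed within their spread, 60 moved and 7 reversed. Of 1140 values for named genes and lists, 260 moved and 1 reversed, Il4i1 in members against centroblasts (0.063). Every setting but those named as added was planned. The cause of a change was not tested.

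With at least 20 Jchain, 5 Xbp1 and 5 Mzb1 UMIs, members had 295 genes higher and 186 lower, 28.6% immunoglobulin UMIs, 36.2% Ighm and 45.0% Ighg, made up 0.791% of barcodes, and their share stood at log2 -0.46 in C and -0.68 in CK over WT (-0.85 and -1.08 as reported). With 5, 2 and 2 UMIs these were 9.98% immunoglobulin, 66.3% Ighm, 26.9% Ighg and 3.05% of barcodes. With at least 1 UMI of Prdm1 or Sdc1, members had 431 genes higher and 369 lower, G2M -0.28, S phase -0.92 (1.21 and 0.46 as reported), 42.0% immunoglobulin, 27.9% Ighm, 46.5% Ighg, 0.476% of barcodes (0.391% immunoglobulin-rich), and shares of -0.28 in C and -0.47 in CK. With at least 20% immunoglobulin UMIs the members are the immunoglobulin-rich ones, with 515 genes higher and 629 lower, G2M -1.22, S phase -1.84, 50.7% immunoglobulin, 22.6% Ighm and 53.6% Ighg as library means, 0.511% of barcodes and -0.43 in CK.

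A mitochondrial limit of 5% gave 16.9% immunoglobulin, 3.13% members and 1.09% immunoglobulin-rich members, with K at -0.52 (0.17 as reported). Members made up 1.98% without the CD3 condition, 1.93% with deposited cells included and 1.39% of all barcodes (0.415% immunoglobulin-rich). Scaling by all UMIs gave 237 genes lower in members, 241 higher and 3063 lower in immunoglobulin-rich members, and for the latter G2M -2.29 and S phase -2.91. Against centrocytes, members had 510 genes higher and 319 lower, G2M 4.30 and S phase 2.36, and immunoglobulin-rich members G2M 1.87 and S phase 0.031. Against centroblasts, members had 35 genes lower and G2M -0.35, immunoglobulin-rich members G2M -2.78. Thinning gave 53 genes lower in members, and 316 higher and 305 lower in immunoglobulin-rich members. Summed heavy chain UMIs gave 31.5% Ighm and 48.6% Ighg in members and 19.8% Igha in immunoglobulin-rich members.

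Of the alternatives added after seeing the data, keeping immunoglobulin-low members below 5% left their counts within 1.5 times, GC B cells as denominator gave 1.65% immunoglobulin-rich members, with K at -0.66 and CK at -1.24. A cut at 40% gave G2M -2.60, S phase -3.48 and 0.344% of barcodes, and a 20% cut without the gate 0.659%.

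Leaving out each library in turn gave 178 to 213 genes higher and 148 to 170 lower in members, 560 to 598 and 687 to 842 in immunoglobulin-rich members, G2M from 1.03 to 1.38 and from -1.27 to -1.17, and S phase from 0.31 to 0.61 and from -1.90 to -1.77. Counts rise because fewer libraries must agree. No paired analysis was possible because each genotype had 1 library and the labels give no shared replicate numbers. There were 29 to 49 immunoglobulin-rich cells per library. Genes with under 20 UMIs over these and the GC B cells together in any library were not compared.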

Other observations

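The variable region of the light chain gave a value that stands beside the constant region without matching it. Iglv1, a lambda variable gene, led the light chain variable UMIs in 8 of the 27 immunoglobulin-rich members with a call in WT, 11 of 24 in C, 28 of 32 in K and 15 of 43 in CK, whereas a lambda constant gene led 1, 1, 2 and 1 cells. Among immunoglobulin-low members Iglv1 led 1 cell, in K.

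Outside the gate, 85 barcodes with a CD3 UMI passed its other conditions, and 26 of them were immunoglobulin-rich.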
